A study of Mus musculus with 7 samples.

Results

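The genes described here are 57 mouse DNA damage response and repair genes, taken as a fixed list of symbols from the 35727 genes of a whole-transcriptome count table, of which 13740 had enough counts to be tested. All 57 were found in the table and all 57 passed the filter on low counts, so none was lost. They were placed in 8 pathway groups by their known roles: 6 genes of damage signalling, 8 of end resection and its helicases, 14 of homologous recombination, 10 of the Fanconi anaemia pathway, 6 of end joining, 6 of single-strand break and base excision repair, 3 of mismatch repair and 4 of nucleotide excision repair.

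The libraries were polyA RNA-seq of undifferentiated pleomorphic sarcoma cells, sorted as RFP+ cells from mouse tumours. Both models began as mesenchymal stem cells of female C57/Bl6 p53KO mice, so the p53 deletion is shared by every library and no p53-proficient or non-tumour group is analysed here. One model (4 libraries) was transduced with a retroviral vector for Ccne1, the gene of cyclin E1, and the other (3 libraries) with one for Vgll3, a cofactor of TEAD transcription factors. Each model went 2 times through wild-type female C57/Bl6 recipients under the skin to give a tumour cell line, and that line was transplanted again to grow the tumours that were sorted. Each group therefore stands for 1 engineered line, line and transgene cannot be told apart, and the ages of the mice are not stated. The labels do not say whether the libraries of a group came from separate tumours, so p-values measure only the spread between these libraries.

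Cells meet broken DNA with the kinases ATM and ATR, which call the effector kinases CHEK2 and CHEK1. A double-strand break is either resected and repaired from the sister chromatid by homologous recombination, which works in S and G2 phase and depends on BRCA1 and BRCA2, or rejoined by the Ku proteins, DNA-PKcs and ligase IV. Crosslinks are handled by the Fanconi anaemia core complex, which ubiquitinates FANCD2 and FANCI, while mismatch, base excision and nucleotide excision repair remove mispaired, damaged or bulky bases. Many recombination and Fanconi genes are transcribed from G1/S onwards in dividing cells, and cyclin E1 drives entry into S phase.

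The label check came first. Vgll3 was 50.7 ± 8.57 CPM (SD, n = 4; CPM is the count scaled to the effective library size) in the Ccne1-labelled libraries and 252 ± 34.6 CPM (SD, n = 3) in the Vgll3-labelled ones, in the direction of its label. Ccne1 was 12.7 ± 5.61 and 14.9 ± 2.16 CPM, and the Ccne1-labelled libraries, at 6.73, 9.24, 18.3 and 16.7 CPM, overlapped the Vgll3-labelled ones, at 12.7, 15.1 and 17.0 CPM (edgeR adjusted p = 0.609). The libraries with the Ccne1 label thus had no higher Ccne1 count, and the labels do not say whether the vector's transcript would be counted as Ccne1. Trp53 was at 66.4 ± 2.69 and 70.7 ± 4.32 CPM (edgeR adjusted p = 0.298), and as the deleted stretch is not stated, this does not check the deletion. The groups are called by their labels throughout. Library totals ran from 21725890 to 53610300 counts, 3 counts stood for 0.0577 to 0.136 CPM, and the lowest count of any member in any library was 36, so every member was measured well above that floor.

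Of the 57 members, 28 were higher and 6 lower in the Vgll3-labelled libraries, and 23 were not called (edgeR quasi-likelihood test, Benjamini-Hochberg adjusted p under 0.05 over all genes tested). That is 49.1% of the members higher and 10.5% lower, beside 25.1% higher and 26.8% lower among all genes tested. The median log2 fold change, always Vgll3-labelled over Ccne1-labelled, was 0.35 over the members and 0.0060 over all genes. Differences were mostly modest: 7 members were at least 2-fold higher and 0 were at least 2-fold lower. The values of the 2 groups did not overlap, with the Vgll3-labelled libraries higher, for 30 members, against 26.8% of all genes, and with them lower for 5 members, against 29.0% of all genes. The summed CPM of the 57 genes ran from 911 to 980 in the 4 Ccne1-labelled libraries and from 1111 to 1173 in the 3 Vgll3-labelled ones. Leaving out 1 library at a time gave 20 to 28 members higher and 5 to 6 lower, and 23 of the 34 calls held in all 7 of these fits.

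**Figure D1:**
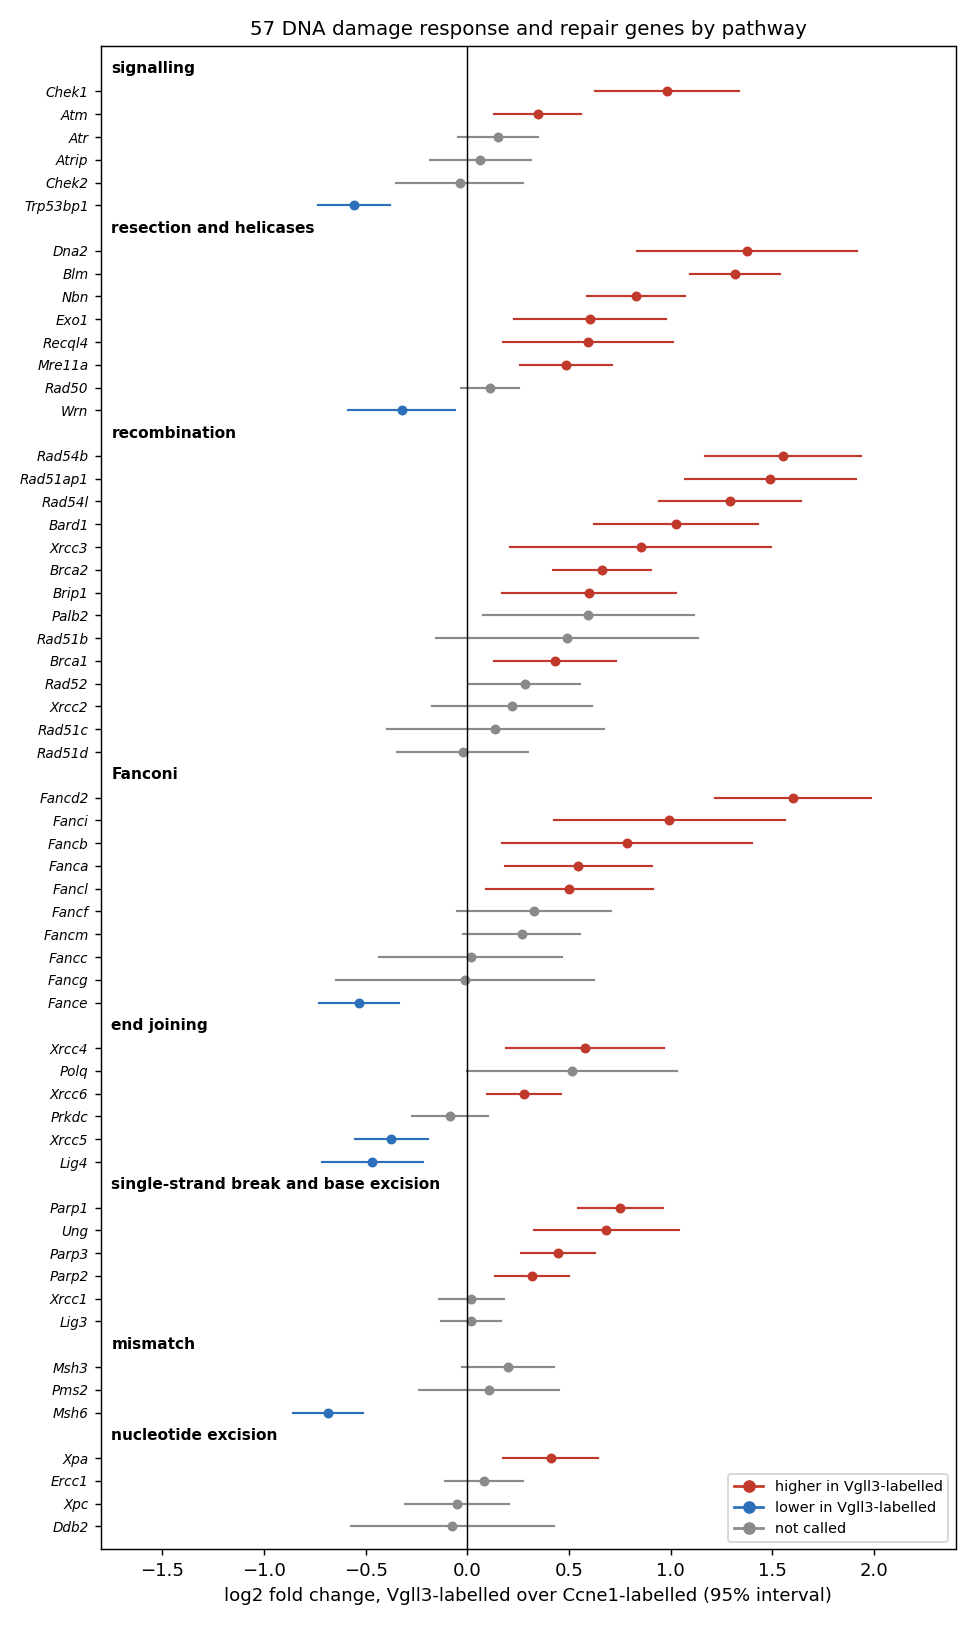
Log2 fold change of each of the 57 members, Vgll3-labelled over Ccne1-labelled, ordered within the 8 pathway groups; points are edgeR estimates, bars their 95% intervals, and colours mark members called higher, lower or not called. Recombination, resection and Fanconi genes reach furthest to the right, up to 1.60 for Fancd2, and the 6 lower members lie between -0.69 and -0.32.

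A measured fact that accompanies these counts is the level of proliferation genes. Of 20 proliferation markers (Mki67, Mcm and cyclin genes and the like), 18 were higher and 0 lower in the Vgll3-labelled libraries, with a median log2 fold change of 0.84. Their summed CPM was 1571, 1100, 1305 and 1393 in the Ccne1-labelled libraries and 1997, 2197 and 2240 in the Vgll3-labelled ones, without overlap. Of the members, 10 had a log2 fold change above the median of those markers. Within the Ccne1-labelled group, where the marker sum was highest in replicate 1 and lowest in replicate 2, 17 of the 28 higher members also had their highest value in replicate 1 and 17 their lowest in replicate 2. The same was not counted over all genes tested, so it is not read as particular to the members. Replicates 1 and 2 also had the lowest and highest library totals, 21725890 and 53610300 counts. The part of proliferation in the members' differences was not tested. In bulk RNA, fewer cells of a type and less RNA per cell cannot be told apart.

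**Figure D2:**
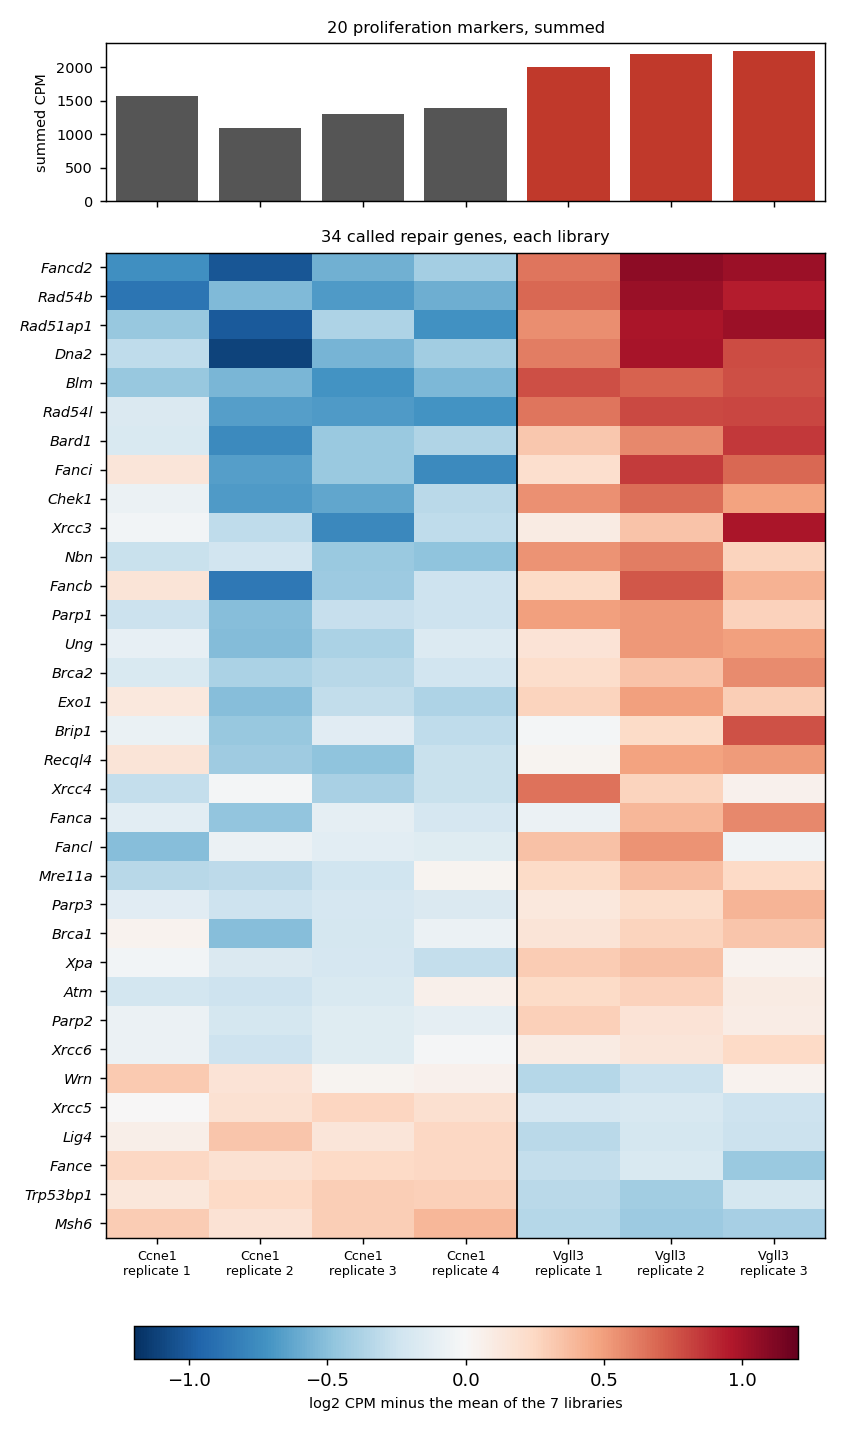
Top, summed CPM of the 20 proliferation markers in each of the 7 libraries (grey, Ccne1-labelled; red, Vgll3-labelled); bottom, log2 CPM of the 34 called members in each library minus the member's mean over the 7, ordered by log2 fold change. The marker sum is 1100 to 1571 in the first group and 1997 to 2240 in the second, and Vgll3 replicate 3 stands out among the Vgll3-labelled libraries for Xrcc3 and Brip1.

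Markers of host cells that a sort can leave behind were measured as well. Macrophage markers summed to 8.21 to 17.8 CPM in the Ccne1-labelled and 7.22 to 15.5 CPM in the Vgll3-labelled libraries, with 0 of the 7 tested genes called by edgeR, and lymphocyte markers to 1.08 to 2.44 and 1.86 to 6.93 CPM, with 0 of 3 called. Endothelial markers were more variable, at 51.0 to 139 and 34.4 to 231 CPM, with 0 of 8 called. The 231 CPM of Vgll3 replicate 3 held 184 CPM of Pecam1, while 6 of the 8 markers, among them Cdh5 (26.2 CPM), were highest in Ccne1 replicate 1. Erythroid markers were lower in the Vgll3-labelled libraries, at 0.189 to 2.25 against 5.73 to 10.3 CPM, with 2 of 3 tested genes lower (Hba-a1 and Hba-a2). Of 8 mesenchymal markers, 4 were higher and 3 lower in the Vgll3-labelled libraries, with sums of 32440 to 36621 and 46634 to 54536 CPM. Vim was 3.19-fold and Pdgfra 4.07-fold lower, Pdgfrb, Col1a1 and Col1a2 were 4.39-fold, 2.97-fold and 4.12-fold higher, and Thy1 was under 10 CPM in every library and not called. Of the host markers, Cd3e, which defines T cells, was at 0 to 0.0857 CPM over all 7 libraries. The part of host RNA in the members' differences was not tested. Leaving out Vgll3 replicate 3 left 25 members higher and 6 lower.

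Promoter words that are known from cell-cycle genes were counted in the members, and the stretches with an E2F-type word are shown because it is the rarest of the words among all genes and was found in 8 of the members with a matched promoter. Promoters (250 bases before to 50 after the start, RefSeq, GRCm38.p6) were matched for 45 of the 57 members. Any of the 4 E2F-type words TTTCCCGC, TTTGGCGC, TTTGCCGC and TTTCGCGC, read on both strands and allowed to overlap, occurred in 8 of the 45 (17.8%), against 2.6% of the 27025 genes with a promoter entry. All 45 matched members passed the low-count filter, while the 27025 genes were not limited to the 13740 tested here. Shares of members and of all genes with a word thus come from unlike sets. Each sequence is 5′ to 3′ on the gene's strand with the word in capitals.
Brca2, higher, chr5:150522442-150522471: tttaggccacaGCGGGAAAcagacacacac
Bard1, higher, chr1:71103163-71103192: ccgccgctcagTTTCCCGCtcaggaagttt
Xrcc6, higher, chr15:82016312-82016341: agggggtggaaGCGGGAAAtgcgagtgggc
Msh6, lower, chr17:87975054-87975083: ctcctcccgacTTTCCCGCcagcggcggcc
Chek2, not called, chr5:110839820-110839849: cgggattagccGCGGGAAAccaagacgtcg
Fancg, not called, chr4:43010335-43010364: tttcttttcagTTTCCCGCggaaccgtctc
Msh3, not called, chr13:92355187-92355216: ttgccgtcaagTTTGGCGCGAAAtcgcagc
Rad51c, not called, chr11:87404941-87404970: cccccgcgaggGCGGGAAAagcaaggggtc

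The word was found in members of every outcome: 3 of the 23 matched higher members (13%), 1 of 5 lower (20%) and 4 of 17 not called (23.5%). Msh3 has 2 overlapping words in the stretch shown, and Rad51c has a second start whose window also holds one. The CHR word TTTGAA was in 3 of the 45 (6.67%), against 20.2% of all genes, and CCAAT in 25 of the 45 (55.6%), against 41.1%. CCAAT was in 13 of the 23 higher (56.5%), 3 of the 5 lower (60%) and 9 of the 17 uncalled members (52.9%). These are matches of letters, not sites shown to be bound.

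Damage signalling genes went in both directions. Of 6 members, 2 were higher (Chek1, Atm), 1 was lower (Trp53bp1) and 3 were not called, with a group median of 0.11. That is 33.3% higher and 16.7% lower, near the 25.1% and 26.8% of all genes tested for a group of 6. Chek1 encodes the effector kinase of the ATR arm, which restrains origin firing and mitotic entry when replication stalls (ENSMUSG00000032113, GRCm38 chr9:36708482-36727065, minus strand). Its counts were 9.28, 6.08, 6.35 and 7.81 CPM in the Ccne1-labelled libraries and 14.3, 15.6 and 13.7 CPM in the Vgll3-labelled ones. Every Vgll3-labelled library lay above every Ccne1-labelled one, and the log2 fold change was 0.98 ± 0.16 (SE; edgeR adjusted p = 0.000837). Chek2, the effector of the ATM arm, had means of 6.05 and 5.88 CPM and was not called, with a log2 interval of -0.35 to 0.27.

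Atm, the kinase activated by double-strand breaks, was at 29.8, 29.2, 30.7 and 36.4 CPM against 40.7, 42.2 and 37.2 CPM. The groups were separate but close at their nearest libraries, and the log2 fold change of 0.35 ± 0.10 (edgeR adjusted p = 0.0142) missed the threshold without Vgll3 replicate 2 (adjusted p = 0.0607), leaving Chek1 as the group's single higher gene there. Atr, the kinase that answers single-stranded DNA at stalled forks, had 25.0, 25.7, 25.0 and 28.3 CPM against 29.3, 31.2 and 26.1 CPM. Its groups overlapped and it was not called (log2 fold change 0.15, interval -0.05 to 0.35), nor was its partner Atrip (0.06, interval -0.18 to 0.31).

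Trp53bp1 encodes 53BP1, which shields broken ends from resection and favours end joining (ENSMUSG00000043909, chr2:121193281-121271407, minus strand). It stood at 46.4, 49.8, 51.7 and 51.3 CPM in the Ccne1-labelled libraries and 33.7, 31.6 and 36.3 CPM in the Vgll3-labelled ones. All Vgll3-labelled values were below all others, a 1.47-fold lower level (log2 fold change -0.56 ± 0.08, edgeR adjusted p = 0.000410). In the annotation, 15.04% of its exon bases are shared with Tubgcp4 on the opposite strand.

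The resection and helicase genes were mostly called higher with all libraries. Of 8 members, 6 were higher, 1 was lower and 1 was not called, and the group median was 0.60. The shares over all genes tested were 25.1% higher and 26.8% lower. Over the leave-one-out fits, 4 to 6 members of this group were higher and 0 to 1 lower. Dna2, a nuclease-helicase that carries out long-range resection (chr10:62947026-62974185), was at 2.32, 1.33, 1.95 and 2.14 CPM against 4.39, 5.67 and 4.92 CPM. The lowest Vgll3-labelled library was above the highest Ccne1-labelled one, a 2.59-fold difference (log2 fold change 1.37 ± 0.24, edgeR adjusted p = 0.00134). Blm encodes the Bloom syndrome helicase, which works with DNA2 in resection and dissolves joint molecules (ENSMUSG00000030528, chr7:80454733-80535119). Its 4 Ccne1-labelled values, 8.01, 7.54, 6.69 and 7.56 CPM, and its 3 Vgll3-labelled values, 18.9, 17.9 and 18.8 CPM, were tight within each group. It was 2.49-fold higher, and its adjusted p was the smallest of the 57 (log2 fold change 1.32 ± 0.10, edgeR adjusted p = 1.63e-05).

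Among the MRN complex genes, whose products tether and trim broken ends, 2 of 3 were higher. Nbn was higher by 0.83 ± 0.11 on the log2 scale (21.6 ± 1.92 to 38.5 ± 4.79 CPM; edgeR adjusted p = 0.000261). Mre11a, the nuclease subunit, was at 32.1, 32.5, 34.3 and 41.4 CPM against 47.4, 52.1 and 47.8 CPM, a 1.40-fold higher level (edgeR adjusted p = 0.00339). Rad50, the ATPase subunit and the only uncalled member of this group, was at 41.3, 41.0, 39.9 and 42.1 CPM against 43.7, 44.3 and 45.1 CPM. All 3 Vgll3-labelled Rad50 values were above the others, but by so little (log2 fold change 0.11, interval -0.03 to 0.25) that the test did not call it (edgeR adjusted p = 0.163).

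Exo1, the other long-range resection nuclease, was 1.52-fold higher (edgeR adjusted p = 0.0139, and 0.0592 without Vgll3 replicate 2). Recql4, a RecQ helicase, was 1.51-fold higher, yet its groups overlapped and its call was lost without any one of 5 libraries (Ccne1 replicates 2, 3 and 4, Vgll3 replicates 2 and 3). Wrn, the Werner syndrome helicase, was the group's only lower member, at 28.0, 25.2, 23.0 and 23.4 CPM against 17.7, 18.9 and 23.2 CPM. Vgll3 replicate 3 fell inside the range of the Ccne1-labelled libraries, and the call (log2 fold change -0.32 ± 0.12, edgeR adjusted p = 0.0435) was lost in every leave-one-out fit except the one without Vgll3 replicate 3 (adjusted p 0.0551 to 0.132 where lost), and with DESeq2 size factors (0.051). Without Vgll3 replicate 2, 4 members of this group remained higher.

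Homologous recombination genes were higher or not called. Of 14 members, 8 were higher, 0 were lower by edgeR, and the groups did not overlap for 10, all with the Vgll3-labelled libraries higher. The group's median log2 fold change was 0.60. Among all genes tested, 25.1% were called higher and 26.8% lower, and 26.8% did not overlap with the Vgll3-labelled libraries higher. The count of higher members was 5 to 8 over the leave-one-out fits, and the 5 came without Vgll3 replicate 3.

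The RAD54 motor proteins and Rad51ap1 differed most in this group. Rad54b was at 2.14, 2.71, 2.45 and 2.62 CPM against 6.32, 8.05 and 7.53 CPM (ENSMUSG00000078773, chr4:11558922-11615805, plus strand). The groups were far apart, with a level 2.93-fold higher in the second group (log2 fold change 1.55 ± 0.17, edgeR adjusted p = 0.000108). The annotation gives 35.8% of its exon bases also to Fsbp on the same strand, so counts for the 2 genes may be split between them. Rad54l, its paralogue, averaged 5.39 ± 1.05 CPM in the first group and 13.2 ± 0.803 CPM in the second, higher by 1.29 ± 0.15 on the log2 scale (edgeR adjusted p = 0.000171). Rad51ap1 encodes a protein that promotes pairing of DNA strands (chr6:126923050-126939587, minus strand). It was at 5.28, 3.60, 5.60 and 4.36 CPM against 10.7, 14.2 and 14.7 CPM, a 2.81-fold higher level with no overlap (edgeR adjusted p = 0.000212).

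The BRCA genes rose by smaller and unequal amounts. Brca1, whose product promotes resection and brings in PALB2, was at 15.7, 10.7, 13.2 and 14.5 CPM against 16.9, 18.4 and 19.2 CPM. The lowest Vgll3-labelled library was just above Ccne1 replicate 1, and the 1.35-fold difference (edgeR adjusted p = 0.0232) was not called without Ccne1 replicate 3, Vgll3 replicate 2 or Vgll3 replicate 3 (adjusted p 0.0523 to 0.0646). Bard1, the obligate RING partner of BRCA1, was at 6.01, 4.02, 5.02 and 5.30 CPM against 8.51, 10.2 and 12.3 CPM. It was 2.04-fold higher with no overlap (edgeR adjusted p = 0.00134). Brca2, which mediates the assembly of recombination filaments, was at 15.01, 13.2, 13.6 and 14.6 CPM against 19.8, 21.7 and 25.4 CPM, 1.58-fold higher with no overlap (edgeR adjusted p = 0.000855).

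Palb2, which links the BRCA proteins, was 1.51-fold higher but just missed the threshold (1.91 ± 0.225 and 2.88 ± 0.368 CPM; edgeR adjusted p = 0.0544), although its groups did not overlap. It passed with DESeq2 size factors, the DESeq2 test and limma-voom. Brip1, a helicase that binds BRCA1, was at 9.10, 6.99, 8.73 and 7.78 CPM against 9.43, 11.3 and 16.3 CPM. Its 1.51-fold difference (edgeR adjusted p = 0.0256) leaned on Vgll3 replicate 3, the highest library, without which it was not called, and it was also lost without Ccne1 replicate 2 or 4 (adjusted p 0.0633 to 0.0729 over the 3).

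The mediator genes Rad51b, Rad51c, Rad51d, Xrcc2 and Xrcc3 were mostly not called. Rad51b, Rad51c, Rad51d and Xrcc2 had log2 fold changes of 0.49, 0.14, -0.02 and 0.22, with edgeR adjusted p of 0.177, 0.648, 0.904 and 0.317. Xrcc3 was the exception, at 1.80-fold higher (2.07 ± 0.423 and 3.73 ± 1.23 CPM; edgeR adjusted p = 0.0315), with a call lost without any one of 5 libraries (Ccne1 replicates 2, 3 and 4, Vgll3 replicates 2 and 3). Rad52, a strand-annealing protein and the most abundant uncalled recombination member by counts, was at 10.8, 14.5, 13.5 and 12.8 CPM against 16.0, 14.1 and 17.0 CPM. Those values overlapped, and the gene was not called (log2 fold change 0.28, interval 0.01 to 0.56, edgeR adjusted p = 0.0788).

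Fanconi anaemia genes were higher, lower or not called. Of 10 members, 5 were higher, 1 was lower and 4 were not called, with a median of 0.41. That is 50% higher and 10% lower, beside 25.1% and 26.8% of all genes tested. Fancd2, the monoubiquitinated substrate, was at 5.32, 4.33, 5.91 and 6.69 CPM against 13.8, 18.6 and 18.1 CPM (ENSMUSG00000034023, chr6:113531682-113597017, plus strand). At 3.03-fold higher without overlap, it had the largest fold of all 57 members (log2 fold change 1.60 ± 0.17, edgeR adjusted p = 9.04e-05). Its clamp partner Fanci was at 5.73, 3.29, 3.81 and 3.05 CPM against 5.96, 9.29 and 8.40 CPM. The highest Ccne1-labelled library, replicate 1, came close to the lowest Vgll3-labelled one, and the gene was 1.99-fold higher (log2 fold change 0.99 ± 0.25, edgeR adjusted p = 0.00911). Exons of Fanci overlap those of Polg on the opposite strand over 16.0% of their bases.

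The core complex, the ubiquitin ligase that acts on this pair, held members of each outcome. Fanca was 1.46-fold higher (edgeR adjusted p = 0.0183), with a call lost without Vgll3 replicate 2 or 3, and Fancb was 1.72-fold higher (edgeR adjusted p = 0.0369), with a call lost without Ccne1 replicate 2, 3 or 4 or Vgll3 replicate 2. Fancl, the RING ligase subunit, was at 4.19, 5.70, 5.48 and 5.41 CPM against 7.63, 8.69 and 5.79 CPM. Its Vgll3 replicate 3 was barely above the Ccne1-labelled libraries, and the call (log2 fold change 0.50 ± 0.18, edgeR adjusted p = 0.0435) held in 1 leave-one-out fit only, without that library, and was also lost without the low-count filter (0.068) and with limma-voom (0.051). Fance, the subunit that contacts FANCD2, went the other way, at 25.0, 23.9, 24.8 and 25.0 CPM against 17.2, 18.6 and 15.4 CPM (chr17:28313519-28326572). It was 1.44-fold lower with clearly separate groups (log2 fold change -0.53 ± 0.09, edgeR adjusted p = 0.000956).

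Fancc, Fancf and Fancg of the core complex were not called (log2 fold changes 0.02, 0.33 and -0.01). Fancm, the translocase that recruits the complex and the most counted uncalled member of this group, was at 10.8, 9.91, 12.3 and 12.2 CPM against 13.5, 15.5 and 11.9 CPM. It overlapped between groups (edgeR adjusted p = 0.106), and without Vgll3 replicate 3 both Fancm and Fancf passed the threshold (adjusted p = 0.0375 and 0.0279). The number of higher Fanconi genes was 3 without Ccne1 replicate 2, 3 or 4, 2 without Vgll3 replicate 2, and at most 6, without Vgll3 replicate 3.

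End joining genes went in both directions. Of 6 members, 2 were higher, 2 were lower and 2 were not called, with a median of 0.10. That is 33.3% higher and 33.3% lower, beside 25.1% and 26.8% of all genes tested. With 6 genes these shares are near those of all genes and are not read as a trait of the pathway. Each of the pathway's 2 partner pairs had 1 gene higher and 1 lower. With the replicate number as a block, 0 genes of the group were called higher and 0 lower. Xrcc5, the gene of Ku80, was at 29.5, 33.4, 35.1 and 33.7 CPM against 25.6, 25.8 and 24.8 CPM, 1.30-fold lower without overlap (edgeR adjusted p = 0.00406). Xrcc6, the gene of its partner Ku70, was at 33.0, 29.1, 31.2 and 34.3 CPM against 37.1, 38.2 and 40.7 CPM, 1.21-fold higher without overlap (edgeR adjusted p = 0.0177).

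Lig4, the ligase of the pathway, was at 10.01, 12.0, 10.6 and 11.3 CPM against 7.63, 8.27 and 7.97 CPM (chr8:9969049-9977686). It was 1.38-fold lower without overlap (log2 fold change -0.47 ± 0.11, edgeR adjusted p = 0.00631). Xrcc4, the scaffold that stabilises ligase IV, was at 5.46, 6.52, 5.08 and 5.52 CPM against 10.4, 7.97 and 6.89 CPM. It was 1.49-fold higher without overlap (edgeR adjusted p = 0.0193), and its call was lost without Ccne1 replicate 3 or Vgll3 replicate 1 (adjusted p 0.0547 to 0.0923), which left Xrcc6 the only higher gene of the group.

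Prkdc, the gene of DNA-PKcs, was at 28.2, 26.3, 25.0 and 29.4 CPM against 24.3, 26.7 and 25.8 CPM. These values interleaved and the gene was not called (log2 fold change -0.09, interval -0.27 to 0.10). Polq, the polymerase of the alternative, microhomology-mediated route, was at 11.1, 5.56, 7.93 and 8.36 CPM against 9.35, 12.0 and 13.9 CPM. It was not called with all libraries (edgeR adjusted p = 0.0855), and passed the threshold without Ccne1 replicate 1, its highest Ccne1-labelled library (adjusted p = 0.0254).

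Single-strand break and base excision genes included 3 higher genes of the poly(ADP-ribose) polymerase (PARP) family and a higher glycosylase gene. Of 6 members, 4 were higher and 0 lower by edgeR, a count that held in every leave-one-out fit, and the median was 0.38. That is 66.7% higher and 0% lower, beside 25.1% and 26.8% of all genes tested. Parp1, the main sensor of single-strand breaks (ENSMUSG00000026496, chr1:180568924-180601254), was at 72.1, 60.3, 71.0 and 72.4 CPM against 121, 124 and 104 CPM. Its groups were widely separate, with a 1.69-fold higher level (log2 fold change 0.75 ± 0.09, edgeR adjusted p = 0.000199). Parp3, an ADP-ribosyl transferase that acts at double-strand breaks, was at 52.0, 47.9, 49.6 and 50.5 CPM against 62.4, 66.3 and 75.9 CPM, 1.36-fold higher (edgeR adjusted p = 0.00163). Parp2, which backs up PARP1, was at 22.6, 20.5, 21.4 and 22.0 CPM against 29.0, 26.6 and 25.2 CPM, 1.25-fold higher (edgeR adjusted p = 0.00917). None of the 3 PARP genes overlapped between groups.

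Ung, the uracil glycosylase that starts base excision of uracil, was at 6.14, 4.58, 5.05 and 5.89 CPM against 7.37, 9.45 and 9.24 CPM, 1.61-fold higher without overlap (edgeR adjusted p = 0.00594). The scaffold and ligase downstream of PARP1 were close to equal. Lig3 was at 50.4, 54.1, 49.5 and 53.2 CPM against 52.7, 51.0 and 53.7 CPM, with a log2 interval of -0.13 to 0.17, and Xrcc1 had means of 41.4 and 41.9 CPM, with an interval of -0.14 to 0.18. Per kilobase of exon, Parp1 (13.0 and 21.9 CPM per kb), Parp3 (13.5 and 18.4) and Msh6 (12.8 and 7.93) were among the most abundant members, and Palb2 (0.260 and 0.393) and Dna2 (0.329 and 0.850) the least in the Ccne1-labelled libraries.

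Mismatch repair held the most lowered member. Msh6 encodes a subunit that recognises base mismatches (ENSMUSG00000005370, chr17:87975062-87990892, plus strand). It was at 55.8, 50.9, 55.5 and 59.7 CPM against 35.6, 33.4 and 34.4 CPM. The groups were far apart, with a level 1.61-fold lower in the second group (log2 fold change -0.69 ± 0.08, edgeR adjusted p = 0.000114). Msh3, a subunit that recognises insertion and deletion loops, was at 14.2, 17.0, 14.4 and 16.2 CPM against 18.5, 18.5 and 16.4 CPM. It overlapped and was not called (log2 fold change 0.20, interval -0.03 to 0.43), nor was Pms2, an endonuclease subunit of MutLα (0.10, interval -0.24 to 0.45).

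Nucleotide excision repair had a single called member. Of 4 members, 1 was higher and 0 lower by edgeR, with a median of 0.02. The share higher, 25%, is near the 25.1% of all genes tested, of which 26.8% were lower. Xpa, the scaffold that verifies damage, was at 19.1, 17.2, 16.9 and 16.0 CPM against 24.1, 24.8 and 20.01 CPM (chr4:46155347-46196311), 1.33-fold higher without overlap (edgeR adjusted p = 0.00942). Ercc1, a subunit of the nuclease that cuts on the 5′ side, was at 22.5, 20.3, 22.9 and 20.9 CPM against 24.1, 23.4 and 21.4 CPM, which overlapped (log2 interval -0.11 to 0.27). The damage sensors Xpc and Ddb2 were not called either (log2 fold changes -0.05 and -0.07).

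Since several opposite changes fell within known complexes, the ratio of partners was also taken inside each library, where it does not depend on library scaling. Over 14 pairs, the ratio did not overlap between groups in 9, with 6 lower and 3 higher in the Vgll3-labelled libraries. In 8 of these the exact two-sided permutation test gave p = 0.0286, the smallest that 4 against 3 libraries allow, and an adjusted p of 0.05 over the 14 pairs, which sits at the threshold and not under it. The members' own changes were known when these ratios were read, and Brca1 is in 2 of the pairs. The share of non-overlapping ratios among other pairs of genes was not counted. Among all single genes tested, 26.8% did not overlap with the Vgll3-labelled libraries higher, and 29.0% with them lower. The count of 9 is therefore not read as particular to these pairs.

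The count ratio of Lig4 over Xrcc4 went from 1.95 to 0.958, a log2 difference of -1.02. Its log2 ratio was 0.87, 0.88, 1.06 and 1.04 in the Ccne1-labelled libraries and -0.45, 0.05 and 0.21 in the Vgll3-labelled ones. Xrcc5 over Xrcc6 went from 1.03 to 0.658 (log2 difference -0.65), a shift between the genes of the Ku heterodimer. Chek1 over Chek2 went from 1.21 to 2.46 (1.03). Brca1 over Trp53bp1, whose products favour and limit resection respectively, went from 0.269 to 0.537 (1.00).

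Msh6 over Msh3 went from 3.59 to 1.94 (log2 difference -0.89), Rad50 over Nbn from 1.90 to 1.16 (-0.71), Brca1 over Bard1 from 2.65 to 1.77 (-0.58) and Parp1 over Parp2 from 3.18 to 4.30 (0.44). Rad51c over Xrcc3 did not overlap either, but its difference of -0.67 had an exact permutation p of 0.143. Xrcc1 over Lig3 had a mean log2 ratio of -0.32 in both groups. The ratios for Atr over Atrip, Brca2 over Palb2, Rad51d over Xrcc2 and Fancd2 over Fanci overlapped (log2 differences 0.09, 0.07, -0.26 and 0.59). Counts are not per length here, so a ratio is read only between groups.

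**Figure D3:**
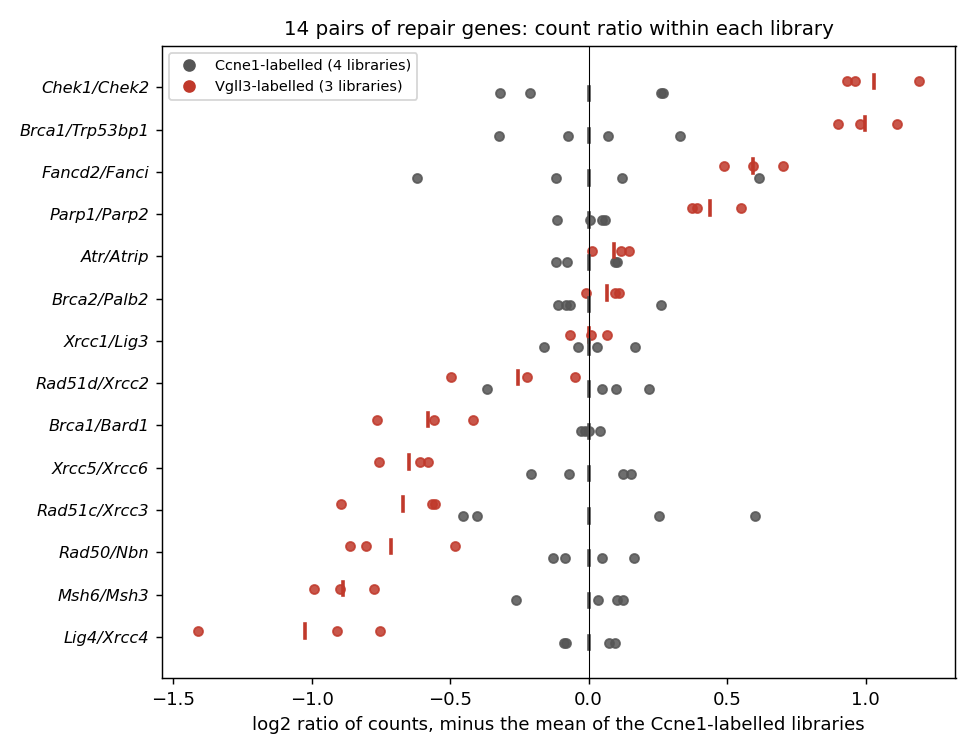
Log2 count ratio of each of the 14 partner pairs in each library, minus the pair's mean over the Ccne1-labelled libraries; points are libraries (grey, Ccne1-labelled; red, Vgll3-labelled) and short vertical bars are group means. Lig4/Xrcc4, Xrcc5/Xrcc6, Msh6/Msh3 and Rad50/Nbn fall and Chek1/Chek2 and Brca1/Trp53bp1 rise without overlap, while Xrcc1/Lig3 does not shift.

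Position on the chromosome was set beside each member, because 2 tumour lines can differ in copy number. Among genes tested within 5 Mb of a member (19 to 190 genes), the median log2 fold change ran from -0.36 to 0.61. Of the 28 higher members, 26 lay above the median of their neighbours, and all 6 lower members lay below theirs. The exceptions were Mre11a, at 0.48 beside 0.49, and Xpa, at 0.41 beside 0.53. Called members were selected by their own change away from 0, so these counts were largely set by the calls. No conclusion is drawn from them. Chromosome 4 as a whole had a median of 0.44 and chromosome 6 of 0.39, and Nbn (0.83 beside 0.61), Rad54l (1.29 beside 0.44) and Rad54b (1.55 beside 0.57) lie on the first and Fancd2 (1.60 beside 0.43) and Rad51ap1 (1.49 beside 0.21) on the second. Fancg on chromosome 4 was at -0.01 beside 0.54. Chromosome 17 had a median of -0.33, and its 2 members were both lower, Msh6 beside -0.32 and Fance beside -0.36. On chromosome 11, with a median of -0.30, Brca1, Brip1 and Fancl were higher beside neighbours at -0.33, -0.29 and -0.25. Copy number was not measured here, and its part in the members' differences was not tested.

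**Figure D4:**
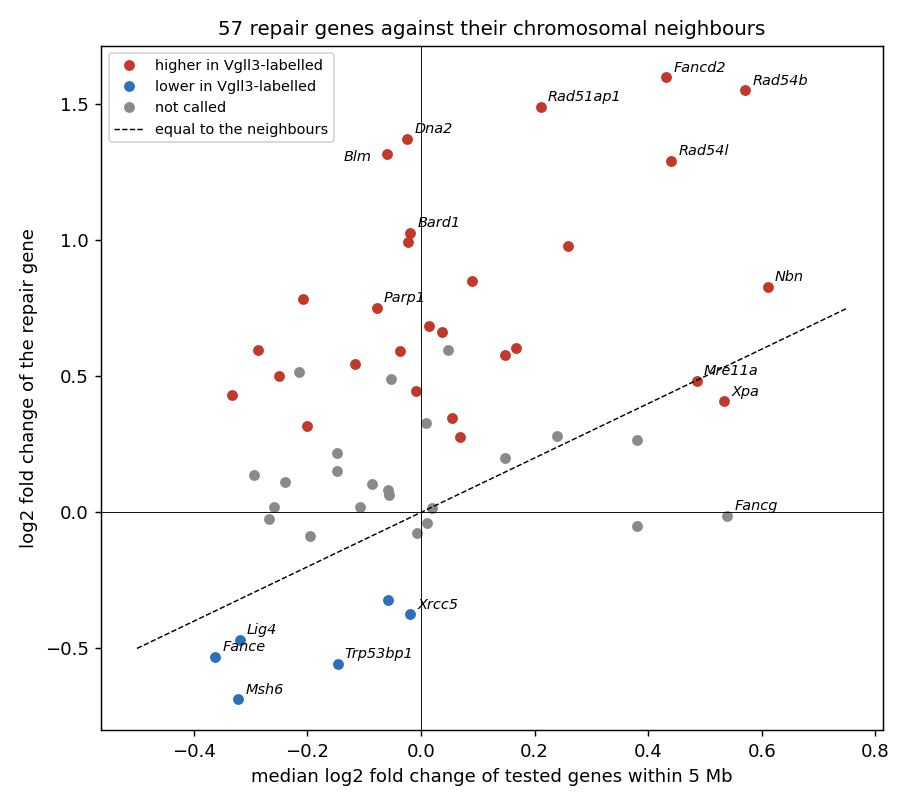
Log2 fold change of each member against the median log2 fold change of tested genes within 5 Mb, with a dashed line of equality; colours mark members called higher, lower or not called. Of the 28 higher members 26 lie above the line, Xpa and Mre11a lie on or under it, and the 6 lower members lie below it.

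A further 109 repair genes, 14 of them damage tolerance and direct reversal genes and the others of the same pathways as the members, were counted in the same fit. Of these, 37 were higher (33.9%) and 20 lower (18.3%), with a median log2 fold change of 0.17. Among all genes tested, 25.1% were higher and 26.8% lower, with a median of 0.0060. These 109 genes thus lay nearer to all genes than the 57 members did, at 49.1% higher and 10.5% lower. The 10 other Fanconi and crosslink genes gave 6 higher and 1 lower (median 0.45), including Usp1, which removes ubiquitin from FANCD2, at 71.3 ± 8.17 and 143 ± 6.26 CPM. Other recombination and resection genes gave 9 higher and 5 lower of 24 (median 0.31), other signalling genes 5 and 4 of 16 (0.18), and other single-strand break and base excision genes 6 and 3 of 17 (0.19). Other end joining genes gave 1 and 1 of 8 (-0.14), other mismatch genes 2 and 1 of 4 (0.26), other nucleotide excision genes 6 and 3 of 16 (0.0036), and damage tolerance and direct reversal genes 2 and 2 of 14 (0.10).

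Among these, Clspn, the adaptor through which ATR activates CHEK1, was at 13.8 ± 2.48 and 37.8 ± 3.58 CPM (edgeR adjusted p = 5e-05), in the same direction as Chek1. Wee1, a kinase that holds back mitotic entry, fell by 0.97 on the log2 scale (34.6 ± 3.54 to 17.7 ± 5.73 CPM; edgeR adjusted p = 0.00435). Mlh3, a MutL partner, was the one further repair gene lower by at least 2-fold, at 9.08 ± 1.09 and 2.06 ± 0.306 CPM, a change of -2.14 on the log2 scale (edgeR adjusted p = 2.73e-05). Clspn, Wee1, Mlh3 and Usp1 were picked after their values were seen.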

How the data were processed

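PolyA RNA of RFP+ sarcoma cells was sequenced from 4 Ccne1-labelled and 3 Vgll3-labelled libraries, grouped by the sample titles. The authors deposited estimated counts per Ensembl gene, made with Salmon on mm10 per the submitters' processing notes. For the Salmon version, the annotation and the use of strand, the entry is: not given in the sources used here. All values were whole, so 0 needed rounding. If strand was not used, reads of a member and of a gene overlapping it cannot be separated: 29 members share some exon bases with another annotated gene, and 11 share at least 10%.

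The members and lists were chosen with earlier results of these data known. Counts were tested over all 7 libraries with edgeR 4.0.16 in R 4.3.3 (filterByExpr, TMM, robust quasi-likelihood F test, Benjamini-Hochberg over 13740 genes, threshold 0.05). CPM used TMM effective library sizes, and SE is the absolute log2 fold change over the square root of F. The fit was tested on simulated data. Pair ratios added 0.5 to each count and used exact two-sided permutation over the 35 ways of dividing the libraries. Alternatives were DESeq2 size factors, no low-count filter, the DESeq2 1.42.0 test, limma-voom (limma 3.58.1), the replicate number as a block, a count offset of 3 for the ratios, and each library left out.

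Values in every library are given for up to 2 called members with the highest and up to 2 with the lowest log2 fold change in each pathway group, and for the uncalled member with the highest mean CPM; those of Bard1, Brca2 and Polq were added after their values were seen. Coordinates are GENCODE M21 gene bounds on GRCm38, the same build as mm10. Totals of 21725890 to 53610300 counts set the counting precision. Floors of counts cover counting error only. The intervals of log2 fold changes come from the edgeR fit and also include the spread between libraries.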

Additional observations from a re-analysis of the deposited data

Results flagged for a closer look

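In each member's 4 Ccne1-labelled values, the highest and lowest library was compared with its nearest neighbour by Dixon's gap ratio at its 95% critical value. Of 57 groups, 4 had a library standing apart, and chance gives about 1 in 20. Rad54l was high in Ccne1 replicate 1, at 6.96 CPM beside 4.76 to 4.95 CPM in the others, and still below every Vgll3-labelled library. Xrcc2 was high in Ccne1 replicate 4, at 4.00 CPM beside 3.32 to 3.37 CPM, inside the range of the Vgll3-labelled libraries. Fance was low in Ccne1 replicate 2, at 23.9 CPM beside 24.8 to 25.0 CPM, and above every Vgll3-labelled library. Parp1 was low in Ccne1 replicate 2, at 60.3 CPM beside 71.0 to 72.4 CPM.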

How the results depend on the processing

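Over DESeq2 size factors, no low-count filter, the DESeq2 test and limma-voom, 27 to 29 members were higher and 5 to 6 lower, and no called member changed sign in any of its 12 alternatives. With the replicate block, 15 members were higher and 3 lower, 16 calls were lost and 0 gained, and 8 other repair genes were lower in place of 20. Higher and lower members were then 4 and 0 in resection and helicases, 5 and 0 in recombination and 1 and 1 in Fanconi. They were 3 and 0 in single-strand break and base excision, and 0 and 0 in both end joining and nucleotide excision. Signalling and mismatch counts did not change. The replicate numbers share no stated source. Deviations of same-numbered libraries from their group means correlated at -0.15, -0.17 and -0.10, and those of other pairs at -0.036 to 0.16. These few correlations cannot show whether same-numbered libraries share a batch, so no conclusion on pairing is drawn. The number of other repair genes lower was 13 to 20 with 1 library left out, 13 being without Vgll3 replicate 1. Uncalled members near 0 changed sign with 1 library left out. Their log2 fold change ran from -0.092 to 0.0039 for Chek2, -0.012 to 0.26 for Rad51c, -0.20 to 0.084 for Rad51d, -0.14 to 0.13 for Fancc and -0.38 to 0.17 for Fancg. It ran from -0.010 to 0.056 for Xrcc1, -0.0015 to 0.042 for Lig3, -0.13 to 0.046 for Xpc and -0.29 to 0.041 for Ddb2, and the log2 ratio difference of Xrcc1 over Lig3 from -0.052 to 0.057. Fancc with the replicate block was at -0.10, Fancg with DESeq2 size factors at 0.0050, and Xrcc1 over Lig3 with the replicate block, within numbers 1 to 3, at -0.011. The cause was not tested. Depth did not limit detection of any member.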
